A study of Homo sapiens with 12 samples.

Results

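Neurofilaments are the intermediate filaments of neurons, and 7 genes of this family and its close relatives were followed here among the 33093 genes of the count table. They were taken by name: *NEFL*, *NEFM* and *NEFH*, which encode the light, medium and heavy neurofilament chains; *INA*, which encodes α-internexin; *PRPH*, which encodes peripherin; *VIM*, which encodes vimentin; and *NES*, which encodes nestin. All 7 passed the filter on low counts. The group was chosen because *NEFM* was nearly lost in cells with an altered *NFKB1* gene, so the differences of these genes between genotypes are given as a description and support nothing, and only their responses to TNFα are given with a p-value.

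Intermediate filaments are built from rod-shaped proteins that pair as coiled coils and then pack side by side. In neurons, NEFL forms the core of the filament, NEFM and NEFH join it and carry long side arms that set the spacing between filaments, and α-internexin or peripherin can take part in the same polymer. Vimentin is the filament protein of mesenchymal and many cultured cells, and nestin is a large protein of progenitor cells that assembles with vimentin. Human embryonic kidney 293T (HEK293T) cells are known to carry RNA of several neurofilament genes.

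The study sequenced RNA from HEK293T cells to ask how phosphorylation of serine 80 of the NF-κB subunit p50 shapes the transcriptional response to TNFα, an inflammatory cytokine. Wild type (WT) cells were compared with *NFKB1* S80A knock-in cells, in which serine 80 is changed to alanine. Cells of each genotype were left untreated or were given 10 ng/ml TNFα for 3 h, with 3 samples in each of the 4 groups. The S80A cells were made from HEK293T cells with CRISPR/Cas9 and a single-stranded repair template, and the edited cells were grown as single-cell clones. The number of clones that went into the RNA samples is not given in the sources used here, so the S80A change and any other difference between clones cannot be told apart. Counts per gene do not show the codon change, and the level of *NFKB1* does not check it.

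The 12 libraries held 15624878 to 20889577 counts on genes, and the first principal component, with 34.5% of the variance, separated the genotypes. On the second, S80A untreated replicate 2 stood apart from the other samples. The treatment check gene *NFKBIA*, an NF-κB target, rose after TNFα by 3.52 on the log2 scale in WT cells and by 3.66 in S80A cells (edgeR quasi-likelihood test, Benjamini-Hochberg adjusted p = 1.58e-11 and 6.55e-12). *TNFAIP3*, another NF-κB target, rose by 3.14 and 3.86 (adjusted p = 6.56e-09 and 4.76e-10). *NFKB1* itself rose by 1.27 and 1.56 (adjusted p = 4.99e-06 and 3.19e-07). Between genotypes *NFKB1* differed by -0.07 in untreated cells and by 0.22 after TNFα (adjusted p = 0.767 and 0.198). Of the leukocyte markers, *PTPRC* and *CD3E* had 0 counts. Among the kidney and epithelial markers, *PAX8* had 0 counts and *PAX2* had at most 50 counts in a sample. *CDH2* had 1738 to 3273 counts, *KRT18* 557 to 1092, *KRT8* 24 to 126, *CDH1* 32 to 114 and *EPCAM* 6 to 24. These markers do not settle the kidney label.

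Values are given as counts, or as CPM, the counts of a gene per 1000000 counts of a library whose size was scaled by the trimmed mean of M-values. Log2 fold changes (S80A over WT, or TNFα over untreated) come with the standard error (SE) of the edgeR fit, and group means with the standard deviation (SD, n = 3). Adjusted p-values are over the 14383 genes tested. They measure the spread between samples described as independently generated triplicates.

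*NEFM* was the member that differed most between genotypes. It had 1908, 1910 and 1774 counts in the 3 untreated WT samples and 2165, 1924 and 2145 after TNFα. In S80A cells the same gene had 3, 6 and 4 counts untreated and 3, 3 and 5 after TNFα. Every WT sample lay far above every S80A sample. In CPM the means were 99.1 ± 7.20 and 112 ± 9.39 in WT cells, against 0.242 ± 0.128 and 0.209 ± 0.0732 in S80A cells. In bulk RNA, fewer cells that express a gene and less RNA per cell cannot be told apart.

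Over the 3 untreated S80A samples *NEFM* summed to 13 counts, against 5592 in WT cells, which is 0.232% of the WT level (exact 95% interval 0.123 to 0.397, for counting error only). After TNFα the sums were 11 and 6234 counts, or 0.183% of the WT level (0.0915 to 0.328). The WT level was thus 432 times the S80A level in untreated cells (252 to 811) and 546 times after TNFα (305 to 1093). The log2 fold change was -8.71 (SE 0.18) untreated and -9.05 (SE 0.19) after TNFα. These SE are narrower than the counting intervals above, so they understate the error of a gene with so few S80A reads. Across both treatments the 6 S80A samples gave 24 counts of *NEFM* and the 6 WT samples gave 11826.

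*NEFM* stood second from the bottom of 14383 genes by fitted fold change in untreated cells and at the bottom after TNFα. The genes beside it in that order had few reads in WT cells: *SERPINB9*, which ranked below it in untreated cells and encodes an intracellular serine protease inhibitor, averaged 3.31 CPM in untreated WT cells. The order among genes with 0 or few counts in S80A cells depends on the prior count of the fit. Of 9597 genes with a WT mean of at least 10 CPM, *NEFM* was the 1 gene under 1 CPM in S80A cells. None of the 9591 genes with an S80A mean of at least 10 CPM was under 1 CPM in WT cells. Both limits were chosen after the values were seen.

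*INA* was higher in untreated S80A than in untreated WT cells. Its CPM values were 52.3, 47.6 and 48.6 in untreated WT samples and 84.9, 68.4 and 61.2 in untreated S80A samples, and the groups did not overlap. After TNFα they were 60.5, 52.5 and 46.8 in WT cells and 82.2, 60.0 and 58.6 in S80A cells, and here the groups overlapped. The log2 fold change was 0.53 (SE 0.14) untreated and 0.33 (SE 0.14) after TNFα. The first S80A sample was the highest in each pair of groups. Without it the difference was 0.39 in untreated cells, and without its counterpart after TNFα it was 0.16. These values were 0.33 to 0.70 and 0.19 to 0.44 when samples of the same number were set against each other.

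*NEFL* had CPM values of 52.3, 42.0 and 45.8 in untreated WT cells and 62.4, 54.9 and 47.9 in untreated S80A cells. After TNFα they were 51.2, 36.3 and 38.6 in WT cells and 54.7, 41.4 and 40.2 in S80A cells. The groups overlapped under both treatments. The log2 fold change was 0.24 (SE 0.15) untreated and 0.11 (SE 0.15) after TNFα. *NEFL* lies 31.9 kb from *NEFM* on the same chromosome, and had 650 to 1249 counts in the 6 S80A samples. The difference after TNFα was -0.043 to 0.28 when 1 library was left out, so its direction was not fixed.

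*NEFH* was expressed at low level, with 9 to 21 counts in untreated WT samples, 5 to 8 after TNFα, 7 to 11 in untreated S80A samples and 5 to 10 after TNFα. Its means were 0.691 ± 0.281, 0.376 ± 0.0834, 0.490 ± 0.0320 and 0.429 ± 0.135 CPM in that order. The genotype difference was -0.51 (SE 0.35) untreated and 0.18 (SE 0.41) after TNFα, and both rest on few reads. At this depth *NEFH* gives wide errors, and the difference after TNFα changed sign (-0.078 to 0.34) when 1 library was left out.

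*PRPH* was as scarce, with 3 to 13 counts in a sample. Its means were 0.399 ± 0.245 and 0.447 ± 0.178 CPM in WT cells and 0.490 ± 0.299 and 0.408 ± 0.163 CPM in S80A cells, untreated and after TNFα. The genotype difference was 0.29 (SE 0.55) and -0.13 (SE 0.56), the groups overlapped, and both signs were seen under each treatment when 1 library was left out (-0.065 to 0.87 and -0.44 to 0.21).

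*VIM* was the most abundant member. Its CPM values were 586.6, 563.9 and 563.7 in untreated WT samples and 536.1, 651.8 and 494.5 in untreated S80A samples. After TNFα they were 763.6, 692.5 and 724.3 in WT cells and 765.6, 723.0 and 761.2 in S80A cells. The genotype difference was -0.03 (SE 0.09) untreated and 0.05 (SE 0.09) after TNFα, and the groups overlapped in both. Whether the counting used strand is not given in the sources used here, so reads of *VIM* and of its antisense gene cannot be told apart where they overlap. *NES* had means of 6.85 ± 0.933 and 5.79 ± 0.712 CPM in WT cells and 6.26 ± 1.79 and 6.10 ± 2.00 CPM in S80A cells, untreated and after TNFα, with a genotype difference of -0.13 (SE 0.23) and 0.09 (SE 0.23). With 1 library left out, the difference took both signs for *NES* under each treatment (-0.38 to 0.051 and -0.22 to 0.24) and for *VIM* in untreated cells (-0.15 to 0.053).

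The number of members past an adjusted p of 0.05 was 2 of 7 in untreated cells (*NEFM* lower, *INA* higher), where 6.26% of all genes tested passed, and 1 of 7 after TNFα (*NEFM*), where 7.36% passed. Because the genotype contrast chose the group, nothing is read from these counts. The median log2 fold change of the 7 was -0.03 untreated and 0.09 after TNFα, and that of all genes was 0.013 and -0.0037.

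To compare genes with each other, levels were divided by the length of the union of their exons. In untreated WT cells the order by CPM per kilobase was *VIM* (110 ± 2.55), *NEFM* (27.3 ± 1.98), *INA* (15.2 ± 0.757), *NEFL* (11.9 ± 1.32), *NES* (1.23 ± 0.168), *NEFH* (0.182) and *PRPH* (0.152). In S80A cells without TNFα, *NEFM* stood at the bottom of the order, at 0.0666 CPM per kilobase, with *VIM* at 108, *INA* at 22.0 and *NEFL* at 14.0. The ranges of genes next to each other in the order overlapped only for *NEFH* and *PRPH*, in every group. Exon unions were 3635 bp for *NEFM*, 3940 bp for *NEFL*, 3251 bp for *INA*, 3795 bp for *NEFH* and 5176 bp for *VIM*.

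The neurofilament chains and α-internexin were also summed, as the total of CPM per kilobase of *NEFL*, *NEFM*, *NEFH* and *INA*. The sum was 54.5 ± 3.99 in untreated WT cells and 36.2 ± 5.55 in untreated S80A cells, and 58.0 ± 6.10 and 32.3 ± 6.09 after TNFα. *NEFM* made up 50.0% ± 0.346 of the sum in untreated WT cells and 0.189% ± 0.105 in untreated S80A cells. *INA* went from 27.9% to 60.7% and *NEFL* from 21.7% to 38.7%. After TNFα the shares in S80A cells were 63.7% for *INA* and 35.7% for *NEFL*. A share of a sum rises in the other genes when 1 gene leaves it, whatever their own level.

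The response to TNFα was not what these genes were chosen by, though earlier results of these data were known when they were chosen. For *VIM*, the level rose by 1.34 times in S80A cells (log2 fold change 0.42, SE 0.09, adjusted p = 0.0319) and was 1.27 times as high in WT cells (0.35, SE 0.09, unadjusted p = 0.00161, adjusted p = 0.149). The samples with and without TNFα did not overlap in either genotype, as for 12.7% of all genes in WT cells and 14.4% in S80A cells. Between samples of the same number the difference was 0.30 to 0.38 in WT cells and 0.15 to 0.62 in S80A cells. The difference of the responses was 0.07 (SE 0.13, interval -0.18 to 0.32, adjusted p = 0.942), so a difference between genotypes was not detected.

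The call for *VIM* in S80A cells rests on single libraries. It was kept in 5 of 12 fits that left out a library, with log2 fold changes of 0.34 to 0.54 and adjusted p of 0.000459 to 0.171, and it was lost without WT untreated replicate 2 or 3, S80A untreated replicate 1 or 3 or any of the 3 S80A samples given TNFα. Over 20 alternatives the adjusted p was 0.000459 to 0.456 in S80A cells, where 11 passed, and 0.00837 to 1.00 in WT cells, where 3 passed.

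Of the 7 members, edgeR called 0 for TNFα in WT cells, where 0.688% of all genes passed, with 2 members (*NEFH* and *VIM*) at an unadjusted p under 0.05 (5.97% of all genes) and 1 (*VIM*) by DESeq2. In S80A cells 1 member (*VIM*) passed, where 1.26% of all genes did. The TNFα response of *NEFM* was 0.18 in WT cells (SE 0.10, adjusted p = 0.938) and, on 24 reads in 6 samples, -0.15 in S80A cells (SE 0.48, adjusted p = 0.954). *NEFL* gave -0.15 (SE 0.15) and -0.28 (SE 0.15), with adjusted p = 0.997 and 0.596. *INA* gave 0.11 and -0.09 (adjusted p = 0.997 and 0.873), and *NES* gave -0.24 and -0.02 (adjusted p = 0.997 and 0.986). *NEFH* gave -0.88 in WT cells (SE 0.37, unadjusted p = 0.0300, adjusted p = 0.708) and -0.19 in S80A cells (adjusted p = 0.908), on 5 to 21 counts. *PRPH* gave 0.20 and -0.22 (adjusted p = 0.997 and 0.930). For the interaction of genotype and TNFα, edgeR called 0 of 7 members and 0.0% of all genes, with 0 members at an unadjusted p under 0.05 (3.62% of all genes) and 0 by DESeq2.

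**Figure D1:**
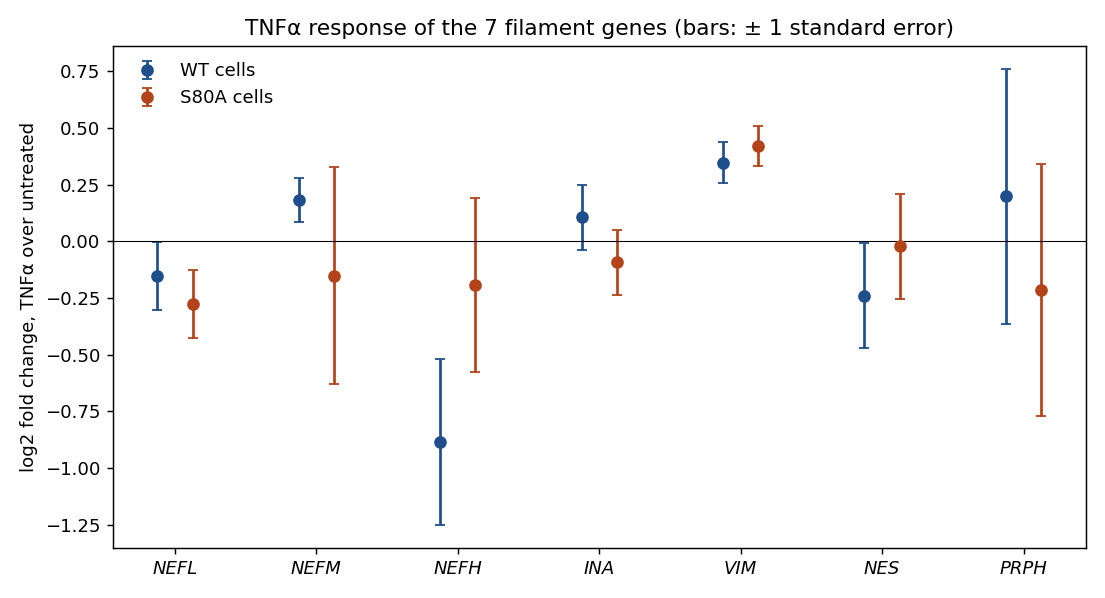
Log2 fold change after TNFα (vertical axis) of the 7 filament genes in WT and S80A cells, with bars for the standard error of the edgeR fit. *VIM* is at 0.35 and 0.42, and the low-count genes *NEFH* and *PRPH* and *NEFM* in S80A cells have the widest bars.

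The genes around *NEFM* were examined next. *NEFM* lies on chromosome 8 of GRCh38 at positions 24913758 to 24919098, on the plus strand, and *NEFL* at 24950955 to 24956721 on the minus strand. Of the 20 tested genes nearest to *NEFM*, 10 on each side, spanning -1.96 Mb to 1.60 Mb from it, edgeR called 0 in both genotype comparisons, with 1 at an unadjusted p under 0.05 in both and 0 by DESeq2, where 3.75% of all genes and 4.29% of the 466 tested genes of the chromosome passed in both. Their log2 fold changes lay between -0.30 and 0.63 in untreated cells and between -0.30 and 0.55 after TNFα, with medians of 0.06 and -0.02. *EBF2*, which encodes a transcription factor of the early B-cell factor family, was higher in untreated S80A cells (0.63, SE 0.15, adjusted p = 0.0191) and gave 0.55 after TNFα (adjusted p = 0.0526), and is named because it was the 1 neighbour past the threshold. Among the neighbours of *NEFM*, the differences were thus of at most 0.63 against the -8.71 and -9.05 of the gene itself.

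*VIM* and *INA* lie on chromosome 10, at 17228241 to 17237593 and 103277138 to 103290346 on the plus strand. The 544 tested genes of this chromosome had medians of -0.19 in untreated cells and -0.24 after TNFα, below the medians of all genes, while *INA* lay above them at 0.53 and 0.33. Of the 20 neighbours of *INA*, the median was -0.15 and -0.20, and of the 20 neighbours of *VIM* it was -0.23 and -0.31. *NEFH* lies on chromosome 22 at 29480218 to 29491390 (plus strand), *NES* on chromosome 1 at 156668763 to 156677407 (minus strand) and *PRPH* on chromosome 12 at 49295147 to 49298686 (plus strand).

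The RefSeq promoter table (GRCh38.p14) held 4 of the 7 genes, *VIM*, *INA*, *NES* and *PRPH*. The 250 bases before the transcription start of *VIM* and of *INA* are shown so that the matches can be seen. *VIM* gave 0.35 in WT and 0.42 in S80A cells after TNFα, with a call in S80A cells that rests on single libraries. *INA* was higher in untreated S80A cells. Capitals mark matches on either strand to a loose form of the κB site (GGG, any 5 bases, then CC) and to the GC box GGGCGG. The first lies at chr10:17227991-17228240 and the second at chr10:103276888-103277137, both on the plus strand, written 5′ to 3′.
VIM: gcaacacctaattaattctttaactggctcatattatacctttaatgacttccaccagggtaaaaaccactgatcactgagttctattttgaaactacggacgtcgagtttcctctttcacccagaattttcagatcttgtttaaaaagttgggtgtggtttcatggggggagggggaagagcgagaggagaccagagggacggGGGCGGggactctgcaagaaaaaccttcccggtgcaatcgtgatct
INA: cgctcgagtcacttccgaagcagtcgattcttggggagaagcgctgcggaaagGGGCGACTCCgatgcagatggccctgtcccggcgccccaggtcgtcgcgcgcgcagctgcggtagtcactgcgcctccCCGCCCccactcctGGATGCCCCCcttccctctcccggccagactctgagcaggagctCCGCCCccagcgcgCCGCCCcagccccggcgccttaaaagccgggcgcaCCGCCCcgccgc
*VIM* held no match to the loose κB form and 1 to GGGCGG, and *INA* held 2 and 4. Of 35116 promoter windows of this length, 54.4% held the first motif and 42.6% the second. The letters TATAAA (10.7% of windows), TGACTCA (4.20%) and CACGTG (6.34%) were in neither. Of the windows not shown, *NES* held 2 matches to the loose κB form and 2 to GGGCGG. *PRPH* held 6 matches to the loose κB form, some of them overlapping, and 0 to GGGCGG. It also held 1 TATAAA, which *NES* did not, and TGACTCA and CACGTG were in neither of them. A match is a description of letters and not a site, and its absence says only that these letters are not in the window.

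Genes whose levels over the 12 samples followed *NEFM* most closely were also listed, by Pearson correlation of log2 CPM. They were *IGFBPL1* (r = 0.995), *BCHE*, which encodes butyrylcholinesterase (0.994), *MBD4*, a DNA glycosylase gene (0.992), *GSPT2*, a translation termination factor gene (0.991), and *SLC7A3*, a cationic amino acid transporter gene (0.991). *BCHE* averaged 2.76 CPM in WT and 0.0447 CPM in S80A samples, and *MBD4* 42.9 and 20.4 CPM. These correlations follow the split between genotypes, which the 6 samples on each side share. Genes closest to *VIM* were *TGIF2* (0.943), *DRAM1* (0.926), *TIFA* (0.918), *SDC4* (0.912) and *CD83* (0.911). *DRAM1*, a p53-induced gene of autophagy, had a TNFα log2 fold change of 1.05 in WT and 1.44 in S80A cells, and *SDC4*, a cell surface proteoglycan gene, of 2.52 and 2.60.

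Among the members, *NEFM* had a correlation of -0.78 with *INA* and -0.38 with *NEFL* over 12 samples, which follows the split between genotypes. Within the 6 WT samples these correlations were 0.64 and 0.31. Within the 6 S80A samples, *INA* went with *NES* (r = 0.97) and with *NEFL* (r = 0.90). Within the 6 WT samples the values were -0.41 for *NES* and 0.52 for *NEFL*. Replicate 1 of the S80A samples had the highest *INA*, *NEFL* and *NES* under both treatments. These samples also differed from all others in the rows with date symbols, as given in the processing section.

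Other intermediate filament genes were taken as a list of 20, of which 9 were tested; the other 11, among them the astrocyte filament gene *GFAP*, the muscle gene *DES* and several keratins, had at most 11 counts in a sample. Of the 9, 1 rose in S80A cells in both comparisons and edgeR called 0 lower, with 2 lower at an unadjusted p under 0.05 in both and 0 by DESeq2, where 1.11% of all genes rose in both and 2.64% fell. It was *KRT18*, the keratin of simple epithelia, which pairs with keratin 8, with means of 36.2 ± 3.80 CPM in WT cells and 49.8 ± 4.35 in S80A cells untreated (log2 fold change 0.46, SE 0.11, adjusted p = 0.0210), and of 33.9 ± 3.23 and 51.3 ± 4.92 after TNFα (0.60, SE 0.11, adjusted p = 0.00471). The gene of keratin 8, *KRT8*, is on the same list, gave -0.62 untreated and -0.29 after TNFα, and did not pass. Reads of *KRT18* can be shared with its many processed pseudogenes, so its counts are uncertain. Its call was lost without WT untreated replicate 1 or 2 or S80A untreated replicate 1. *LMNA*, *LMNB1* and *LMNB2*, the nuclear lamina genes, gave 0.12, -0.0038 and -0.11 untreated and did not pass. The list medians were -0.11 and -0.07.

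The filament partners, 25 genes of linkers, motors and kinases that act on filaments, had 24 tested genes. Of these edgeR called 0 in both genotype comparisons, with 4 at an unadjusted p under 0.05 in both and 1 (*KIF5B*) by DESeq2, where 3.75% of all genes passed in both. After TNFα, where 7.36% of all genes passed, 1 was higher, *EPPK1* (1.41, adjusted p = 0.0189), which encodes epiplakin, a linker of the plakin family, and 1 was lower, *KIF5B* (-0.43, adjusted p = 0.00502), the heavy chain of kinesin-1, a motor of filament and organelle transport. These were named because they were the 2 past the threshold.

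Of a list of 35 neuronal genes and regulators, 26 were tested, with *REST* and *RCOR1* among them. The other 9, among them *DCX* and *STMN2*, had at most 3 counts in a sample. Of the 26, 2 rose in S80A cells in both comparisons and edgeR called 0 lower, with 4 lower at an unadjusted p under 0.05 in both and 0 by DESeq2, where 1.11% of all genes rose in both and 2.64% fell. *ENO2*, neuron-specific enolase, had means of 19.4 ± 1.70 in WT and 40.5 ± 7.10 CPM in S80A cells untreated (1.07, SE 0.12, adjusted p = 0.000151), and gave 1.18 after TNFα (adjusted p = 6.82e-05). *NCAM1*, a neural cell adhesion molecule, had means of 15.9 ± 2.43 and 29.0 ± 2.85 CPM (0.88, SE 0.11, adjusted p = 0.000420) and gave 0.75 after TNFα (adjusted p = 0.00151). After TNFα 5 genes of the list were higher in S80A than in WT cells, where 2.92% of all genes were, these and *STMN3*, *DPYSL3* and *L1CAM* (0.38, 0.68 and 1.91, adjusted p = 0.00984, 0.0321 and 0.0101), which are named because they complete the count. *ISL1*, a homeobox gene of motor and sensory neurons, fell by 0.63 on the log2 scale after TNFα in both genotypes (adjusted p = 0.0168 in WT and 0.0147 in S80A cells). It is named because it was the 1 gene of the list to pass there. Of all genes, 0.688% passed for TNFα in WT cells and 1.26% in S80A cells. *REST*, a repressor of neuronal genes, gave 0.23 and -0.09 between genotypes (adjusted p = 0.200 and 0.660). The list medians were 0.12 and 0.02.

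Of the markers of other cells, *COL1A1*, a collagen gene of fibroblasts, was the 1 of 3 tested fibroblast markers to pass in both genotype comparisons. It was lower in S80A cells (log2 fold change -1.20 untreated and -1.03 after TNFα, adjusted p = 3.55e-05 and 0.00015), where 2.64% of all genes were lower in both. The summed level of the fibroblast list was 16.1 to 18.2 CPM in untreated WT and 8.45 to 9.46 CPM in untreated S80A samples, and 15.4 to 17.1 and 7.61 to 9.61 CPM after TNFα. Most of this sum was *COL1A1* itself, with means of 14.9 and 6.47 CPM in untreated WT and S80A cells. The other tested markers, *COL3A1* (0.882 and 0.519 CPM) and *PDGFRA* (1.17 and 1.55 CPM), lay in opposite directions and did not pass. The part of such cells in the *NEFM* difference was not tested. The defining marker *COL1A2* had at most 1 count in a sample. The summed level of the leukocyte list was 3.20 to 5.14 CPM in WT and 3.93 to 4.92 CPM in S80A samples. Of 6 tested kidney and epithelial markers 3 passed in both comparisons, where 3.75% of all genes did: *KRT18* and *CDH2*, which encodes N-cadherin, were higher in S80A cells, and *CDH1*, which encodes E-cadherin, was lower in both (-1.31 after TNFα, adjusted p = 0.0222 untreated and 0.00585 after TNFα).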

How the data were processed

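RNA from 12 HEK293T samples (4 groups of 3) was made into poly(A)-selected stranded libraries and sequenced as single-end 75 bp reads. Per the study's methods, the authors aligned reads to GRCh38 with HISAT and counted them per gene with HTSeq-count. The deposited table holds these raw counts per gene symbol; versions and counting options are not given in the sources used here. The other deposited lists hold the authors' own TNFα comparisons (fold changes, p-values and normalised signals) and were not used.

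Samples were grouped by their labels, and each of the 12 columns matched 1 sample. Of 33121 rows, 28 were dropped, whose symbols read as dates and which lacked a number in at least 1 column. They held 0% of the counts in replicate 1 of both S80A groups, against 0.207% to 0.233% in the other samples. A missing number was counted as 0 in this share, so 0% can stand for blank cells and not for absent reads. Whether replicate 1 of the S80A groups was counted or tabulated in another way was not tested. Of the 33093 kept, 11042 had 0 counts in all samples. The main test was edgeR 4.0.16 in R 4.3.3, with filterByExpr (minimum count 10, 14383 genes), TMM scaling and a quasi-likelihood fit with 1 mean per group over all 12 samples. The Benjamini-Hochberg adjustment ran over all genes tested, and calls had an adjusted p under 0.05. The SE is the log2 fold change divided by the square root of the F statistic. It can be too small for a gene near 0 counts in a group, as for *NEFM* between genotypes. Log2 CPM used a prior count of 2. Exact (Clopper-Pearson) 95% intervals of ratios of summed counts cover counting error only, with library totals of 15624878 to 20889577. Exon unions and positions came from GENCODE v44 (GRCh38), neighbours and promoters from RefSeq, which placed 13781 of the tested genes. Python 3.11.15 (scipy 1.17.1, pandas 2.3.3, numpy 2.4.6) made the tables.

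The edgeR step was tested on simulated data for the untreated genotype comparison: over 14258 genes, 81.6% of the genes given a log2 change of 1 were found, as were 99.0% of those given 2, while 5.32% of calls were false. The simulated samples were independent and had no outlying library. Genes not given a change had the same mean in all groups. These shares may thus not hold for the real samples. Alternatives were DESeq2 1.42.0, other scalings and filters, a replicate block, a fit to the 6 samples compared, a fold limit and leaving out samples. The members and the gene lists were chosen with earlier results of these data known. Genes named beside the members were, for each list, up to 5 in each direction past the threshold in both genotype comparisons with a mean of at least 1 CPM, the 5 most correlated with *NEFM* and with *VIM*, and the nearest neighbours of *NEFM*, of which 1 is not reported here; others are marked in the text as chosen after their values were seen.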

Additional observations from a re-analysis of the deposited data

How the results depend on the processing

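In S80A against WT cells *NEFM* stayed lower in every alternative that kept it, with a log2 fold change of -9.35 to -8.42 over both comparisons; the filter of 10 counts in every sample (13012 genes) removes it by construction. The number of members called for TNFα in WT cells (0) became 1 with DESeq2 and in the fit to the 6 samples compared, and 0 to 1 when 1 library was left out. For TNFα in S80A cells (1) it became 0 in the 6-sample fit, with a log2 limit of 1 and without the 4 samples numbered 1 (an alternative chosen after seeing the data), and 0 to 1 without 1 library. For the genotypes untreated (2) it became 1 with total counts, with 10 counts in every sample, in the 6-sample fit, with the log2 limit and without the samples numbered 1, and 1 to 2 without 1 library. For the genotypes after TNFα (1) it became 0 with 10 counts in every sample and 2 with the replicate block (*INA* added). Of the other intermediate filaments (1) it became 0 in the 6-sample fit, with the log2 limit and without the samples numbered 1, and 0 to 1 without 1 library; of the neuronal genes (2) 1 with the log2 limit. Of the partners (0) it became 1 with DESeq2 and with the block, and 0 to 1 without 1 library; of the *NEFM* neighbours (0) 1 with DESeq2 size factors, total counts, 10 counts in every sample and the block, and 0 to 1 without 1 library. The replicate numbers were not taken to pair the samples. The mean of each group was subtracted from the log2 CPM of its samples, and the remainders were correlated between samples of different groups. Same-numbered samples correlated at 0.118 on average (-0.099 to 0.495 over 18 pairs, 9 of them above 0.1). Differently numbered ones correlated at -0.059 (6 of 36 above 0.1), and 5 of 12 correlated best with their own number. Subtracting group means pushes the second average below 0 when the first is above it, so these averages are not independent. The 6 pairs numbered 1 all lay above 0.1 (0.116 to 0.495). Directions of responses to TNFα changed when 1 library was left out: for TNFα in WT cells *PRPH* (-0.15 to 0.78); for TNFα in S80A cells *NEFM* (-0.45 to 0.27), *INA* (-0.27 to 0.051), *NES* (-0.33 to 0.23) and *PRPH* (-0.66 to 0.086); for the interaction *NEFM* (-0.64 to 0.087), *NEFL* (-0.28 to 0.041), *VIM* (-0.0082 to 0.19) and *NES* (-0.095 to 0.47). Genotype differences that changed sign without 1 library are given beside their values above; without the samples numbered 1, *VIM* untreated (0.024) and *NES* after TNFα (-0.26) did so too. The cause of these changes was not tested. Depth limits *NEFH*, *PRPH* and *NEFM* in S80A cells, whose responses rest on at most 21 counts a sample.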
